A study of Rattus norvegicus with 2 samples.

Results

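Ribosome biogenesis and the nucleolus were followed through 36 rat genes chosen by name, whose products transcribe ribosomal DNA, modify and cut the precursor ribosomal RNA, and assemble both ribosomal subunits. A gene was included where a gene probe on both arrays carried the accession of one of its RefSeq transcripts, which held for 32 of the 36, out of 15159 named genes on the arrays. No probe was matched to Nhp2, Wdr75, Nop14 or Tsr1, which were not analysed here. All 32 genes were well above background on both arrays, as were 9026 of all named genes, so no member was lost to the filter on dim signals.

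The cells were RMT-1, a rat mammary tumour line (clone E4), cultured in medium with fetal bovine serum and transiently transfected. One group received a negative control siRNA and the other an siRNA against Pla2g4c, a cytosolic phospholipase A2. Each group was 1 one-colour array (Cy3-labelled cRNA from total RNA), so differences have no replicate check and could not be tested across samples. The dose and the time after transfection are not given in the sources used here. A whole-culture RNA sample cannot tell fewer cells of a kind from less RNA per cell.

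The nucleolus forms around the ribosomal DNA repeats, where RNA polymerase I makes a long precursor RNA. Small nucleolar ribonucleoproteins (snoRNPs) guide its chemical modification, box C/D particles placing methyl groups and box H/ACA particles pseudouridines. Large assemblies then cut and fold the precursor into the small and large subunits, and the genes for these factors are textbook targets of the transcription factor Myc in growing cells.

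The 75th percentile of the gene spots was 852 signal units on the control array and 1105 with Pla2g4c siRNA, with 61.9% and 63.1% of gene spots well above background and 0 saturated. No probe was matched to Pla2g4c, so the targeted transcript did not check the labels. Of 6 epithelial markers 5 were well above background on both arrays, the exception being Krt18. Their summed signal was 461150 units with control siRNA and 267510 with Pla2g4c siRNA. In the scaled differences explained below, Krt5 (-1.72), Krt14 (-0.97) and Cdh1 (-0.63) were lower and Epcam (1.03) and Krt8 (0.86) higher. Of 5 fibroblast markers Vim, Col1a1 and Col1a2 were well above background on both arrays, with sums of 622 and 643 units, differences of -0.76, 0.13 and -0.26, and Dcn on neither. Of 3 endothelial markers Cdh5 was (62.4 and 61.2 units), and Kdr and Pecam1 were on neither. Of the leukocyte markers, Cd68 was, and Ptprc, Cd3e and Itgam were on neither. The part of these markers in the results was not tested. Below, a level is log2 of the processed signal minus log2 of that array's 75th percentile, and a difference is the level with Pla2g4c siRNA minus the level with control siRNA. The ± is the error that the scanner software estimates for both signals, carried to the difference, so it holds technical error inside an array and no biological spread. It is given per spot, is not reduced by averaging, and had a median of 0.20 over the members.

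As a group the 32 genes differed little between the arrays, and the exceptions were the abundant nucleolar proteins nucleophosmin and nucleolin, which were lower, and the largest polymerase I subunit, which was higher. Of the 32, 0 reached 2-fold in the upward direction (2.91% of all named genes), and 0 reached 2-fold in the downward direction (3.05%). At 1.5-fold, 0 were higher (8.69% of all genes) and 2 lower (10.3%), and these were Npm1 and Ncl. Under quantile normalization 0 were lower and 0 higher (9.04% of all genes each). Cyclic loess also gave 0 lower (8.77% of all genes) and 0 higher (9.08%). Spike-in scaling gave 0 lower (2.1% of all genes) and 10 higher (45.1%). The authors' deposited values gave 1 lower (Npm1; 6.61% of all genes) and 1 higher (Polr1a; 13.0%). The median difference of the 32 was -0.08, beside -0.01 over all 9026 genes, and 13 of 32 were above 0, against 49.0% of all genes. The middle 50% of the members' differences spanned 0.33 on the log2 scale, beside 0.52 for all genes. For 19 members the difference was smaller than its own software error, which was close to 0.20 for each. The share of all genes within their own error was not counted, and the middle 50% of all genes ran from -0.27 to 0.25. The difference exceeded 2 times its error in 3 members (29.4% of all genes), 1 upward (Polr1a; 14.1% of all genes) and 2 downward (15.3% of all genes).

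**Figure D1:**
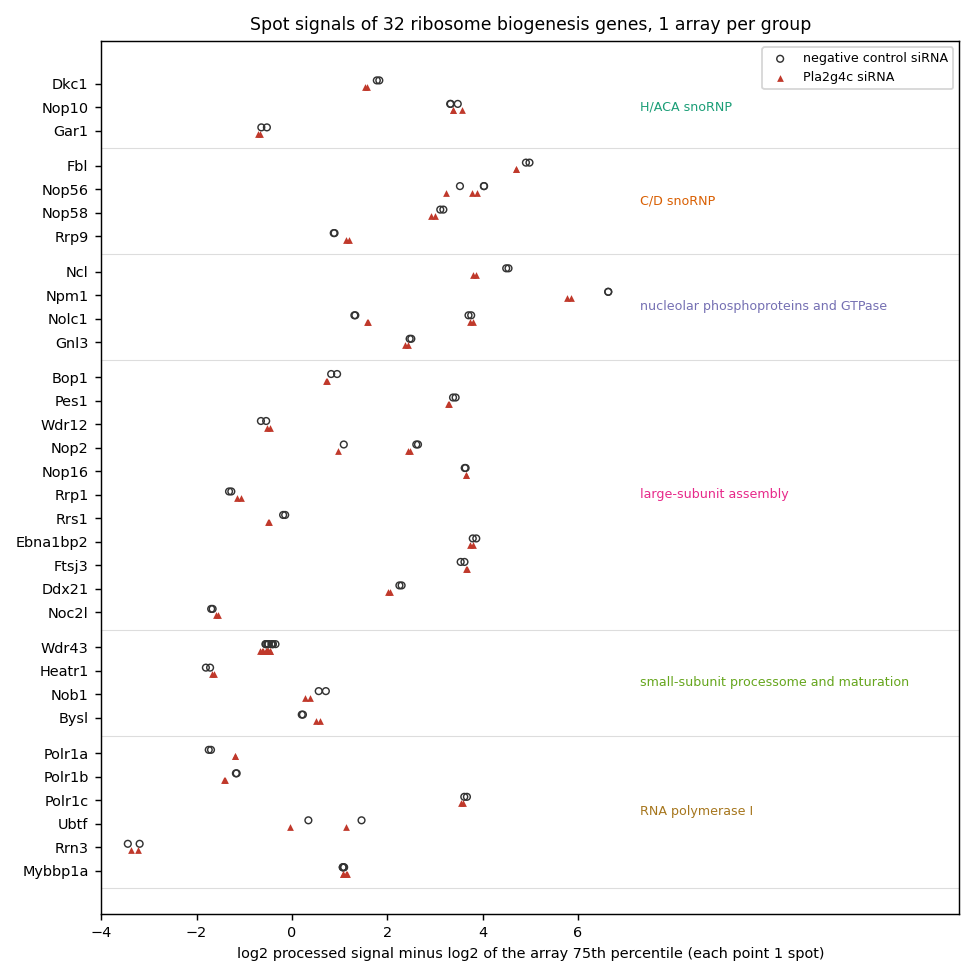
Level of every spot (x axis, log2 processed signal minus log2 of the array's 75th percentile) for the 32 measured genes, grouped by role, with open circles for the negative control siRNA array and triangles for the Pla2g4c siRNA array. Npm1 and Ncl have their triangles well to the left of their circles and Polr1a has them to the right, while for most other genes both kinds of point lie close together.

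Spots of one probe agreed closely within an array, so small differences between the arrays separated the spots without exceeding the software error. Among the 28 members with at least 2 spots for every probe, the spots of the arrays did not overlap in 24. By the gene's mean, 10 of these were higher and 14 lower with Pla2g4c siRNA. Mybbp1a counted as higher, though its 2 probes separated in opposite directions. Spots did not overlap for 76.5% of the 6847 named genes that could be compared in this way, so that non-overlap is the usual state of genes on these arrays.

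Nucleophosmin (Npm1), a histone chaperone and structural protein of the nucleolus, had the lowest difference. Its 2 spots read 84542 and 84755 signal units on the control array and 63616 and 60514 with Pla2g4c siRNA. The Pla2g4c siRNA spots lay below the control spots already before scaling. The level went from 6.63 to 5.81, a difference of -0.82 ± 0.20, or 1.77-fold lower. Nucleolin (Ncl), which binds the precursor RNA and ribosomal DNA chromatin, read 19201 and 19856 units on the control array and 15985 and 15281 with Pla2g4c siRNA. This gave levels of 4.52 and 3.82 and a difference of -0.70 ± 0.20, or 1.62-fold lower. Both genes were below 0 under all 10 processing alternatives. The alternatives on the choice of probes and spots could not change the values of Npm1 and Ncl, which each had 1 probe and no flagged spot. Under the 9 other than spike-in scaling, which raises every gene alike, 12 members including these stayed below 0. Over all 10 alternatives Npm1 ranged from -0.85 to -0.28 and Ncl from -0.72 to -0.15. The upper ends were those of spike-in scaling, and without it they were -0.30 for Npm1 and -0.50 for Ncl. The name table lists 20 pseudogenes of Npm1 and 5 of Ncl, and whether their transcripts add to these probes was not tested.

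The other proteins of this kind did not share the sign of Npm1 and Ncl throughout. Nolc1, a chaperone of snoRNPs, had a difference of 0.15 ± 0.20. Its brighter probe gave 0.04 and its dimmer probe 0.26, so that the size depended on the probe. Gnl3 (nucleostemin), a nucleolar GTPase, gave -0.08 ± 0.20. The 4 genes had a median of -0.39, which was -0.17 under quantile normalization.

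Bright probes as a whole were lower with Pla2g4c siRNA, and Npm1 and Ncl are bright. Among genes outside the list with a mean signal at least that of Npm1, 99 of 104 were below 0, with a median difference of -0.57. Ribosomal proteins made up 60 of these, and the other 44 had a median of -0.37. Of the 104, 13 were as low as Npm1. At or above the signal of Ncl there were 367 such genes with a median of -0.31, and 44 were as low as Ncl. Ribosomal proteins made up 73 of the 367, and the other 294 had a median of -0.20, with 24 as low as Ncl. With methods that remove a trend of difference with signal, Npm1 was -0.30 (quantile normalization) and -0.48 (cyclic loess), and Ncl was -0.53 and -0.50. Such methods would also remove a real difference shared by most bright genes, so these values do not separate it from an effect of signal. The part of signal in these results was therefore not tested. Fibrillarin (Fbl) was bright too, and its -0.25 became 0.03 with quantile normalization and -0.0033 with cyclic loess.

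**Figure D2:**
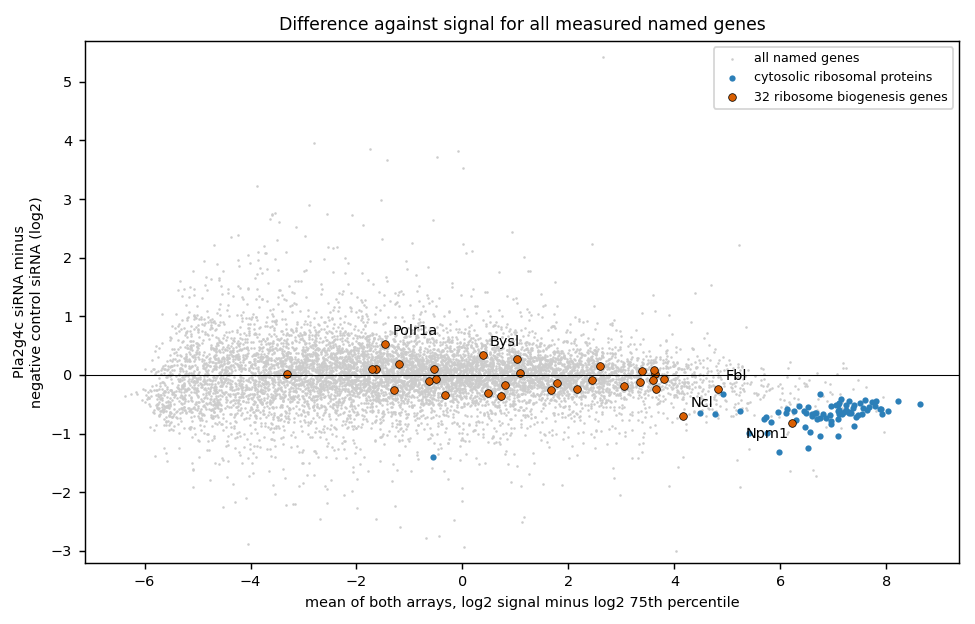
Difference between the arrays (y axis, log2) against the mean level of both arrays (x axis, log2) for all 9026 named genes in grey, the 74 cytosolic ribosomal proteins in blue and the 32 ribosome biogenesis genes in orange. Npm1 lies at the signal of the ribosomal proteins and within their range of differences, Ncl and Fbl lie to the left of most of them, and most other members lie near 0.

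Across the members, difference and mean level were correlated at r = -0.47 (Pearson) and rho = -0.38 (Spearman, n = 32), and without Npm1 and Ncl, left out after their values were seen, -0.27 and -0.25 (n = 30). Over all named genes these were -0.08 and -0.05. Both axes share the same signals, and genes are not independent replicates, so this is a description only. Of the members 16 lay in the brightest 20% of genes, where the median difference was -0.14 for them and -0.08 for all 1805 genes. Among genes of middling signal (the third of 5 equal groups) the 8 members had a median of 0.01 and all genes 0.02.

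Among RNA polymerase I genes, the sign differed from subunit to subunit. Polr1a, the largest and catalytic subunit, read 263 and 254 units on the control array and 486 and 480 with Pla2g4c siRNA. Its levels were -1.72 and -1.19, a difference of 0.53 ± 0.20, or 1.44-fold higher, the highest of the 32 members. Polr1b, the subunit that forms the active centre together with Polr1a, had mean signals of 379 and 414 units and a difference of -0.25 ± 0.20. Polr1c, which polymerase III also contains, had 10644 and 13051 units and a difference of -0.08 ± 0.20. Polr1a was above 0 under every alternative that measured it, from 0.35 with normexp background correction to 1.07 with spike-in scaling.

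Of the factors that bring polymerase I to the ribosomal DNA promoter, Ubtf (upstream binding factor) had one spot for each of 2 probes, which read 1082 and 2344 units on the control array and 1076 and 2434 with Pla2g4c siRNA. Scaled to each array's 75th percentile both probes were lower, by -0.38 and -0.32, giving -0.35 ± 0.20 for the gene. Rrn3, the initiation factor that couples the polymerase to growth signals, was the dimmest member at 85.7 and 112 units, and its 0.02 ± 0.21 became -0.13 with normexp. Mybbp1a, a nucleolar repressor of ribosomal RNA synthesis, was measured by 2 probes at 0.07 and -0.02, with a gene value of 0.03 ± 0.20. The 6 polymerase I genes had a median of -0.03.

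**Figure D3:**
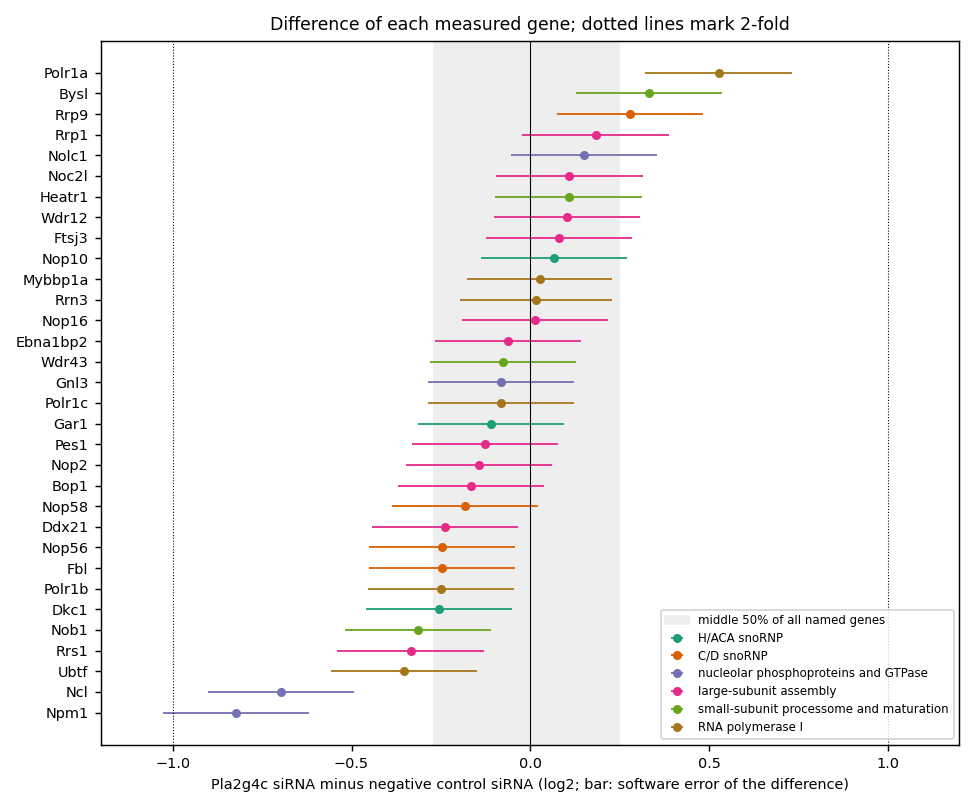
Difference of each of the 32 genes (log2, Pla2g4c siRNA minus negative control siRNA) in rising order, coloured by role, with bars for the software's technical error and a grey band for the middle 50% of all named genes. All points lie inside the dotted 2-fold lines, Npm1 (-0.82) and Ncl (-0.70) are apart at the low end and Polr1a (0.53) is at the high end.

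Of the enzymes and cores of the snoRNPs, 3 of 4 box C/D and 2 of 3 box H/ACA genes were below 0, beside 51.0% of all genes, and none reached 1.5-fold or exceeded 2 times its error. Fbl, the methyltransferase of box C/D particles, had a mean signal of 26256 units on the control array and 28710 with Pla2g4c siRNA, a difference of -0.25 ± 0.20. The scaffold proteins Nop56 and Nop58 gave -0.25 ± 0.20 and -0.18 ± 0.20, and the 2 probes of Nop56 gave -0.29 and -0.20. Rrp9, which is bound to the U3 particle alone and serves cutting rather than methylation, went the other way. It read 1564 and 1583 units on the control array and 2529 and 2429 with Pla2g4c siRNA, a difference of 0.28 ± 0.20 or 1.21-fold higher. The 4 genes of this class had a median of -0.21, which was -0.03 under both quantile normalization and cyclic loess.

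Of the box H/ACA proteins, Dkc1 (dyskerin), the pseudouridine synthase, had 2981 and 3239 units and a difference of -0.26 ± 0.20. Its partners Gar1 and Nop10 gave -0.11 ± 0.20 and 0.07 ± 0.20, and the 2 probes of Nop10 gave 0.07 and 0.06. Nop10 spots overlapped between the arrays. The median of these 3 genes was -0.11, and 0.02 in the authors' deposited values.

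The 11 genes of large-subunit assembly had a median of -0.06, with 5 above 0 (49.0% of all genes). The PeBoW complex, needed to process the RNAs of the large subunit, was represented by Bop1 at -0.17 ± 0.20, Pes1 at -0.13 ± 0.20 and Wdr12 at 0.10 ± 0.20. Its members therefore lay on both sides of 0, each within 1 error of it. Rrs1, which helps install the particle carrying the smallest ribosomal RNA, was the lowest of the 11 at -0.34 ± 0.20, with 750 and 772 units on the control array and 790 and 776 with Pla2g4c siRNA. The helicase Ddx21 gave -0.24 ± 0.20 and the RNA methyltransferase Nop2 -0.14 ± 0.20. The highest was Rrp1 at 0.18 ± 0.20 (347 and 511 units), a large-subunit factor. Noc2l (0.11 ± 0.21), Ftsj3 (0.08 ± 0.20), Nop16 (0.01 ± 0.20) and Ebna1bp2 (-0.06 ± 0.20) completed the class.

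Of the small-subunit factors 4 were measured, with a median of 0.02. Bysl (bystin), which acts in late nucleolar maturation, read 983 and 999 units on the control array and 1568 and 1672 with Pla2g4c siRNA. Its levels were 0.22 and 0.55, a difference of 0.33 ± 0.20, or 1.26-fold higher, next to Polr1a among the members. Nob1, the nuclease that makes the last cut of the small-subunit RNA, read 1395 and 1258 units against 1435 and 1331, a difference of -0.31 ± 0.20. Wdr43 and Heatr1, early components that join the precursor as it is transcribed, gave -0.08 ± 0.20 and 0.11 ± 0.21. Wdr43 had 10 spots per array, from 579 to 671 units on the control array and from 694 to 800 with Pla2g4c siRNA, and after scaling these ranges overlapped.

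The stretches upstream of the start sites of the 2 lowest and the 2 highest members are shown because these 4 genes mark both ends of the range. Sequences are from RefSeq (250 bases before the start of the gene). Capitals mark matches, on either strand, to CACGTG (the E-box bound by Myc), CCGGAAG (a core of ETS factor sites, CTTCCGG on the other strand) or GCATGCG (a core of NRF1 sites, CGCATGC on the other strand). No motif contains another, and the 2 strands of the NRF1 core can overlap.
Npm1, GRCr8 chr10:18255742-18255991, minus strand: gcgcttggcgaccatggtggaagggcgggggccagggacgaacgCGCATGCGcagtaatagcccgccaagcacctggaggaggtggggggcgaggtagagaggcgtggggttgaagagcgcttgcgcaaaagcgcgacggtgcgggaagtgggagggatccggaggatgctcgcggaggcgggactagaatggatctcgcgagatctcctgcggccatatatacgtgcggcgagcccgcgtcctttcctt
Ncl, GRCr8 chr9:94456084-94456333, minus strand: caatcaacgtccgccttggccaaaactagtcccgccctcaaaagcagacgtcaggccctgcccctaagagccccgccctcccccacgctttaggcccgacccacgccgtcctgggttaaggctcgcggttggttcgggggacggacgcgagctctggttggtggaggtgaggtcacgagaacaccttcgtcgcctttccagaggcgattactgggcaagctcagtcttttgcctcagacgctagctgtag
Bysl, GRCr8 chr9:20880091-20880340, plus strand: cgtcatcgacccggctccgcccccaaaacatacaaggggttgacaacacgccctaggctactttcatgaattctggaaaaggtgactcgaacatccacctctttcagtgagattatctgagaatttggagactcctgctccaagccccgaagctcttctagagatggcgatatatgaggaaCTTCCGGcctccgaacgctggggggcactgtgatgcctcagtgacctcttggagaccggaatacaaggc
Polr1a, GRCr8 chr4:105508055-105508304, plus strand: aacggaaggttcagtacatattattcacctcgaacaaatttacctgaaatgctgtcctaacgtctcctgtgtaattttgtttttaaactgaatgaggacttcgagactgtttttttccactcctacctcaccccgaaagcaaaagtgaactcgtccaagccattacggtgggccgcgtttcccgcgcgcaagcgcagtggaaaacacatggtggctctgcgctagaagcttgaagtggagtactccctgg

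Npm1 held the NRF1 core on both strands at 1 place, Bysl held 1 match to the ETS core, and Ncl and Polr1a held none of the 3 motifs in this window. A window was found for 33 of the 36 genes. The E-box was in 6 of them (18.2%), namely Dkc1, Gnl3, Mybbp1a, Pes1, Rrp1 and Wdr75, and in 5.59% of all 33469 windows of the same length. The ETS core was in 12 (36.4%), against 7.27% of all windows. The NRF1 core was in Nob1, Nolc1 and Npm1 (9.09%), against 2.93% of all windows. The members' windows had a median GC content of 58.0%, against 51.2% for all windows, and base composition was not adjusted for. The 5 measured genes with an E-box had a median difference of -0.08, from -0.26 to 0.18, and the 24 measured genes with a window lacking it had -0.07. For the ETS core the medians were -0.11 over 11 genes with it and 0.02 over 18 without, and for the NRF1 core -0.31 over 3 with it and -0.07 over 26 without. A match is a description of the letters and shows no binding.

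The rest of the pathway, from lists of 176 other factors of which 143 had a probe, was similarly spread around 0. All 143 were measured, with a median of 0.01 and 78 above 0 (49.0% of all genes). Differences of 2-fold were found in 2 genes, both lower (3.05% of all genes were lower and 2.91% higher). Those were Rsl24d1, a large-subunit factor, at -1.18 ± 0.20 (458 and 263 units), and Polr2l, a small subunit shared by all 3 nuclear RNA polymerases, at -1.18 ± 0.20 (12948 and 7437 units). The 41 other small-subunit factors had a median of 0.05, from Tsr2 at -0.64 ± 0.20 and Utp14a at -0.56 ± 0.20 to Utp20 at 0.64 ± 0.29 and Riok3, an atypical kinase, at 0.71 ± 0.20. Utp20 was dim, at 22.0 and 44.2 units. The 43 other large-subunit factors had a median of 0.01, and Nvl (0.64 ± 0.21) and Urb1 (0.42 ± 0.20) were highest.

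Other polymerase I and ribosomal DNA factors numbered 12, with a median of -0.11, and again differed by subunit. Polr1f gave -0.88 ± 0.22, while Polr1e gave 0.44 ± 0.21 and Taf1a, a subunit of the promoter selectivity factor, 0.31 ± 0.29. The exosome and RNase MRP, which trim and cut the precursor, had a median of -0.03 over 21 genes, from C1d at -0.62 ± 0.22 and Pop5 at -0.45 ± 0.20 to Pop4 at 0.33 ± 0.20 and Exosc9 at 0.60 ± 0.20. The snoRNP assembly factors had a median of 0.09 with 8 of 10 above 0, beside 49.0% of all genes. They ran from Pih1d1 at -0.10 ± 0.20 and Ruvbl1 at -0.04 ± 0.20 to Rpap3 at 0.25 ± 0.20 and Naf1 at 0.43 ± 0.24.

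The proteins of the ribosome itself had lower differences than the factors that build it. All 74 measured cytosolic ribosomal proteins were below 0, beside 19 of 32 members and 51.0% of all genes. Their median was -0.64, and 49 were at least 1.5-fold lower, beside 2 of 32 members and 10.3% of all genes. Without replicates the difference between these lists was not tested. The lists also differ in signal, with 73 of the 74 ribosomal proteins at least as bright as Ncl, while 16 of 32 members lay in the brightest 20% of genes. Other genes at least as bright as Ncl, without members and ribosomal proteins, had a median of -0.20. The part of signal in this contrast was not tested. The ribosomal protein median moved to -0.10 under quantile normalization and -0.25 under cyclic loess, where the members' medians were -0.01 and 0.01. Under these methods 4 and 8 ribosomal proteins (5.41% and 10.8%) were at least 1.5-fold lower, beside 9.04% and 8.77% of all genes. Below 0 were 56 and 68 (75.7% and 91.9%), beside 48.1% and 48.0% of all genes. Spike-in scaling left 3 at least 1.5-fold lower (4.05%, and 2.1% of all genes) and 55 below 0 (74.3%, and 11.5% of all genes). The authors' deposited values left 21 (28.4%, and 6.61% of all genes) and 74 (100%, and 37.2% of all genes). Mitochondrial ribosomal proteins had a median of -0.01 over 65 genes, with Mrps27 at -1.41 ± 0.21 the only one at least 2-fold lower (3.05% of all genes). Translation initiation and elongation factors had a median of -0.25 with 31 of 37 below 0, beside 51.0% of all genes. Their median was -0.13 with quantile normalization, -0.14 with cyclic loess and -0.11 in the authors' deposited values.

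**Figure D4:**
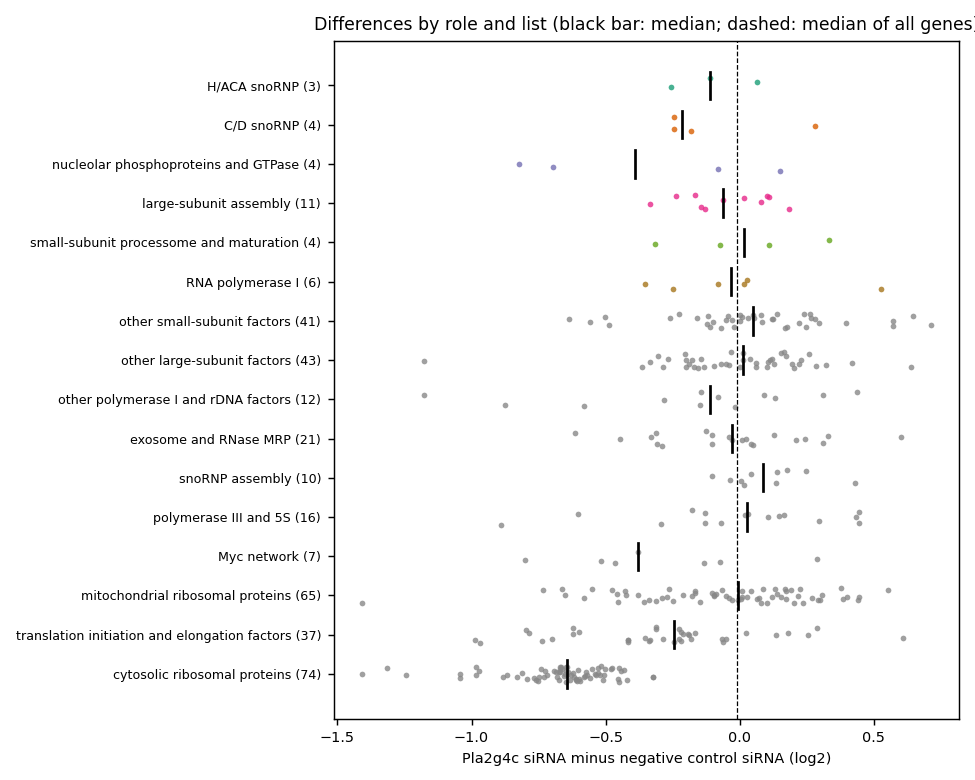
Differences (log2, Pla2g4c siRNA minus negative control siRNA) of the members by role (coloured) and of the other lists (grey), 1 point per gene, with a black bar at each median, the number of measured genes in brackets and a dashed line at the median of all named genes. The cytosolic ribosomal proteins (median -0.64) lie wholly below 0, and the members and the other biogenesis factors lie around 0.

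The sign of many members depended on the processing. Scaling to the spike-in RNAs set the median of all genes at 0.54, and the authors' deposited values set it at 0.12. Spike-in scaling adds 1 constant to every gene, so that 88.5% of all named genes were above 0 and 13.0% at least 2-fold higher. Of the members 30 of 32 were above 0 there, with a median of 0.47, Polr1a was 2.11-fold higher (1.07), and Npm1 (-0.28) and Ncl (-0.15) were below 0. Relative to all genes the members' median was -0.07 there, as with the 75th percentile. Leaving spike-in scaling out, 10 members were above 0 under the reported processing and every alternative that measured them, among them Polr1a, Bysl, Rrp9, Rrp1 and Nolc1. In the same settings 12 were below 0 throughout, among them Npm1, Ncl, Ubtf, Rrs1, Nob1 and Dkc1, and the other 10 changed sign.

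**Figure D5:**
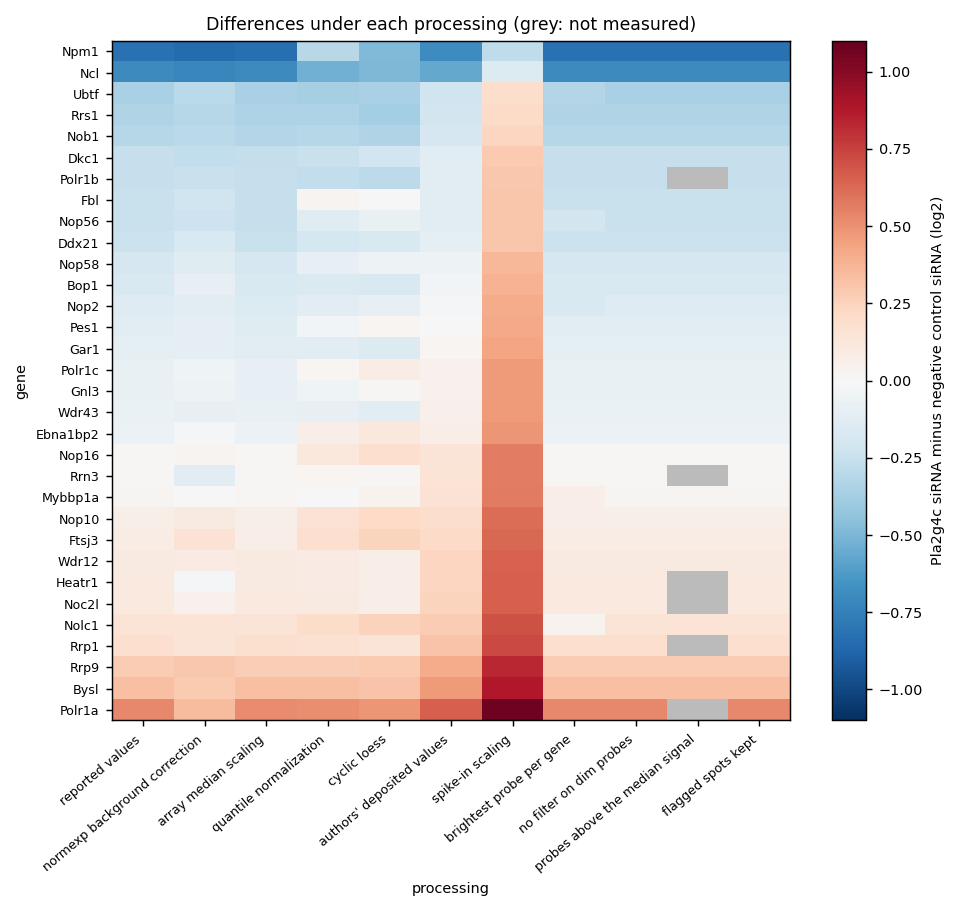
Difference of each of the 32 genes (rows, from lowest to highest reported value) under the reported processing and 10 alternatives (columns), red for higher and blue for lower with Pla2g4c siRNA (log2), grey where the gene was not measured. Npm1 and Ncl are blue in every column, Polr1a and Bysl red in every column that measured them, and the spike-in column is shifted upward as a whole.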

How the data were processed

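RNA of RMT-1 cells was hybridised to Agilent one-colour arrays, 1 per group, on 1 slide. The deposited scanner files hold spot intensities, background-subtracted and detrended but not normalized between arrays, and the software was Agilent Feature Extraction, version 10.10.1.1 in the headers and 10.10 in the submitters' processing notes. The flags for background and outliers come from the same software, per the file headers. The authors' deposited table of normalized intensities is the processed signal multiplied by 1.77 (control) or 1.50 (Pla2g4c siRNA), constants whose origin is not given in the sources.

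Processed signals were scaled to the 75th percentile of gene spots on the log2 scale of the deposited values. Outlier-flagged spots were left out, spots of a probe and measured probes of a gene were averaged, and a probe was measured where each kept spot passed the well-above-background flag on both. RefSeq accessions (GRCr8 table) named 18006 of 30367 probes. Array number limits precision. No test was possible, so genes were counted at 2-fold and 1.5-fold. All members were named, and of each other list genes at least 2-fold different or among the 2 highest and 2 lowest could be, though some are not reported here. Members and lists were chosen with earlier results of these data known. Alternatives were normexp (offset 50, on median spot signals), median scaling, quantile normalization, cyclic loess, the deposited values, 7 spike-in probes, the brightest probe, no dim filter, probes above the median signal, and flagged spots kept. R 4.3.3, limma 3.58.1, Python 3.11.15, pandas 2.3.3, numpy 2.4.6, matplotlib 3.10.9 and scipy 1.17.1 served for this, and steps were tested on simulated data.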

Additional observations from a re-analysis of the deposited data

How the results depend on the processing

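No paired analysis was possible because each group has 1 array, and leaving out a replicate was not possible for the same reason. A median or a difference was taken as moved when it changed by more than the median software error of 0.20. A count was taken as moved when it changed by more than 1.5-fold, or from or to 0. With spike-in scaling all 32 members moved, as did the medians of every list: 0.47 for the members, 0.44 for box H/ACA, 0.33 for box C/D, 0.16 for the nucleolar phosphoproteins and GTPase, 0.49 for large-subunit assembly, 0.56 for the small subunit and 0.51 for polymerase I. The other lists were at 0.60 (small-subunit factors), 0.56 (large-subunit factors), 0.43 (polymerase I and ribosomal DNA), 0.52 (exosome and RNase MRP), 0.64 (snoRNP assembly), 0.57 (polymerase III), 0.17 (Myc network), -0.10 (cytosolic ribosomal proteins), 0.54 (mitochondrial ribosomal proteins) and 0.30 (translation factors). There, 1 member was at least 2-fold higher and 30 were above 0. Of all named genes 13.0% were at least 2-fold higher and 88.5% above 0. Quantile normalization gave -0.17 for the nucleolar phosphoproteins and GTPase and -0.10 for the cytosolic ribosomal proteins, and cyclic loess -0.25 for the latter. With probes above the median signal, 8 of 26 members were above 0, against 46.8% of all genes, and the Myc network median was -0.10. The members kept there had unchanged values, and the count fell because Rrp1, Noc2l, Heatr1, Polr1a, Polr1b and Rrn3 were left out as dim. A threshold of 1.5-fold called 2 members lower (10.3% of all genes). Under quantile normalization and cyclic loess it called 0 lower (9.04% and 8.77% of all genes) and 0 higher (9.04% and 9.08%). With spike-in scaling it called 0 lower (2.1% of all genes) and 10 higher (45.1%). The authors' deposited values gave 1 lower (6.61% of all genes) and 1 higher (13.0%). Quantile normalization and cyclic loess moved 2 members each, and the 7 other alternatives moved none. Most of these had little or no room to move a member. Median scaling and the deposited values shift all genes alike, by less than 0.20. The choices of probe and spot could not change the value of a member with 1 probe and no flagged spot. The dimmest member, Rrn3, changed sign under normexp, as did Heatr1 and Mybbp1a.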

Other observations

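Textbooks place Myc and its partners upstream of ribosome biogenesis genes. Myc itself read 4850 and 4833 units on the control and Pla2g4c siRNA arrays, a difference of -0.38 ± 0.20. Its binding partner Max gave -0.52 ± 0.21, the Max-binding repressor Mxd3 -0.80 ± 0.21, and the related factor Mlx 0.29 ± 0.20. Of 7 measured network genes 6 were below 0, beside 51.0% of all genes, with Mnt (-0.13) and Mxi1 (-0.08) within their own error. Mxd1 gave -0.46 ± 0.21. The median of the 7 was -0.38, and -0.10 with probes above the median signal. Activators and repressors such as Mxd3 are joined in this list, so its count and median give no direction of Myc activity. No network gene was at least 2-fold different, beside 2.91% of all genes higher and 3.05% lower. At 1.5-fold 1 gene, Mxd3, was lower (10.3% of all genes).

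RNA polymerase III makes the smallest ribosomal RNA and the transfer RNAs. Its 16 measured subunits and factors had a median of 0.03, and the alternative subunits Polr3g (-0.89 ± 0.21) and Polr3gl (-0.60 ± 0.20) were both lower, while Polr3c was highest (0.44 ± 0.21).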
